A study of Azumapecten farreri with 9 samples.

Results

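The cytosolic chaperonin, also called CCT or the T-complex, was followed through its 8 subunits, alpha to theta, in hemocytes of the Zhikong scallop, Azumapecten farreri. The 8 genes were selected on their gene descriptions (T-complex protein 1 subunit alpha to theta) and on their lower level in exosome-injected than in PBS-injected scallops, and they are 8 of the 21617 genes in the table. All 8 passed the expression filter, an FPKM (fragments scaled to transcript length and library depth) of at least 1 in at least 3 libraries, which 11678 genes passed. Because of that choice, their levels against PBS are given as a description with no test.

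The chaperonin is a double ring in which each ring carries 1 copy of each of the 8 related subunits. It encloses newly made proteins and folds them with the energy of ATP, and its best known clients are actin and tubulin, which other chaperones do not fold in its place. Hemocytes are the circulating immune cells of molluscs, and crawling, spreading and phagocytosis by such cells rest on actin filaments and microtubules.

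RNA was measured by poly(A) sequencing of hemocytes in 9 libraries, 3 in each of 3 groups. In the first group the scallops had received PBS, the injection control, and in the others they had received exosomes, small membrane vesicles released by cells. Libraries titled LPS_T carry the group label of normal exosomes and those titled NOR_T the group label of exosomes from LPS (bacterial lipopolysaccharide) stimulation, so the titles and the labels contradict each other and the groups are named here by title only, with no direction given to LPS. No strain, age, dose or time after injection is stated in the labels, nor whether replicate libraries stem from different scallops or from pooled blood. The p-values therefore reflect only library-to-library spread, part of which may be technical.

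Estimated counts summed to 19894628 (PBS 1) to 45831950 (PBS 3) per library. In PBS 1, 17.8% of the total came from 2 genes on scaffold38697, which made up 0.0318% to 0.0979% of every other library. Levels are therefore given mainly as CPM (estimated counts relative to the TMM-adjusted library total) and as shares within the complex, which no library scaling can change. Of the hemocyte markers 8 of 13 matched genes passed the filter, 7 integrins and 1 peroxidasin, while no description named a transglutaminase. Their summed level was 1435 to 1540.3 CPM in PBS, 1619 to 1664 CPM in LPS_T and 1519 to 1669 CPM in NOR_T.

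The 8 genes lay on 8 different scaffolds, with positions in the assembly of the deposited table, whose name is not given in the sources used here. Alpha (evm.TU.scaffold23237.14) spanned positions 272239 to 287910 on the plus strand of scaffold23237, and beta (evm.TU.scaffold2427.12) positions 226654 to 239261 on the plus strand of scaffold2427. Gamma (evm.TU.scaffold21081.56) spanned 1625738 to 1638363 and delta (evm.TU.scaffold63471.37) 767280 to 780419, both on the plus strand of the scaffold in their name. Epsilon (evm.TU.scaffold32463.5) spanned 122560 to 135113 and zeta (evm.TU.scaffold45501.4) 124118 to 136209, again on the plus strand. Eta (evm.TU.scaffold722365.1) and theta (evm.TU.scaffold17381.1) lay on the minus strand, at 40 to 1468 and at 7555 to 20075.

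Eta was the exception in its gene model. It covered 1429 bases at the start of its scaffold, against 12092 to 15672 bases for the other 7 genes, and the transcript length implied by its counts and FPKM was the shortest, with gamma 4.74 and beta 8.67 times as long. It also had the fewest estimated fragments, 244 to 776 per library with a counting error of 3.59% to 6.41%. The other 7 had 1246 to 7375 fragments and a counting error of 1.16% to 2.83%. By counting error eta is thus the least precise member. Its spread between libraries was not always the largest, since in NOR_T the coefficient of variation was 8.03% for eta and 10.3% for delta.

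The table's own gene ontology terms placed 7 of the 8 in the chaperonin-containing T-complex. Beta, which carries 1 term only, was the exception, and no other tested gene carried that term. The same terms put 7 of 8 in the extracellular exosome, all but zeta, against 428 of the 11678 tested genes (3.67%), and 6 of 8 in the microtubule, all but beta and zeta, against 83 tested genes (0.711%). Such terms are transferred from other species and say nothing of where the scallop proteins are.

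The 8 transcripts together made up 0.285%, 0.347% and 0.34% of all counts in PBS 1, 2 and 3. They made up 0.118%, 0.12% and 0.115% in LPS_T 1, 2 and 3, and 0.154%, 0.162% and 0.153% in NOR_T 1, 2 and 3. The 3 groups did not overlap, with PBS highest and LPS_T lowest. The members were chosen for lying below PBS. How many tested genes have groups that stand apart, here and for the single subunits below, was not counted, so nothing is read from it. In TMM-scaled units the summed level was 3403 ± 107 CPM in PBS, 1143 ± 56.1 CPM in LPS_T and 1546 ± 81.7 CPM in NOR_T (mean ± SD, n = 3 each). In bulk RNA, fewer cells that carry these transcripts and fewer transcripts per cell cannot be told apart.

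Theta, the subunit with the smallest spread in PBS, stood at 635, 623 and 631 CPM in PBS 1, 2 and 3. It stood at 188, 189 and 179.7 CPM in the LPS_T libraries and at 258, 294 and 285 CPM in the NOR_T libraries. The lowest PBS library was above the highest of NOR_T, and the lowest of NOR_T above the highest of LPS_T. Epsilon stood at 615, 569 and 570.2 CPM in PBS, at 249, 252 and 229.7 CPM in LPS_T and at 273, 299 and 270.3 CPM in NOR_T. It kept the same order without overlap, but the gap between LPS_T and NOR_T was narrow, from 252 to 270.3 CPM.

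Zeta stood at 539.8, 470.4 and 475 CPM in PBS, with PBS 1 above the other 2 libraries. It stood at 148, 149 and 129 CPM in LPS_T and at 205, 214 and 204 CPM in NOR_T. Alpha stood at 484, 474 and 458 CPM in PBS, at 151, 168 and 142 CPM in LPS_T and at 209, 218 and 209 CPM in NOR_T. For both, the groups stood apart in the same order, PBS above NOR_T above LPS_T.

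Eta, with its short model, stood at 75.6, 61.6 and 66.4 CPM in PBS, at 22.8, 28.6 and 24.3 CPM in LPS_T and at 33.3, 34.6 and 29.6 CPM in NOR_T. Its groups did not overlap, and the nearest libraries of LPS_T and NOR_T differed by about 1 CPM. Beta, gamma and delta had means of 349 ± 11.4, 435 ± 18.3 and 370.3 ± 15.3 CPM in PBS (SD, n = 3). Their means were 118 ± 3.86, 149.8 ± 3.87 and 125 ± 7.99 CPM in LPS_T, and 162 ± 8.79, 200.3 ± 12.9 and 172 ± 17.8 CPM in NOR_T. Over all subunits and groups the coefficient of variation within a group ran from 0.964% (theta in PBS) to 11.9% (eta in LPS_T).

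**Figure D1:**
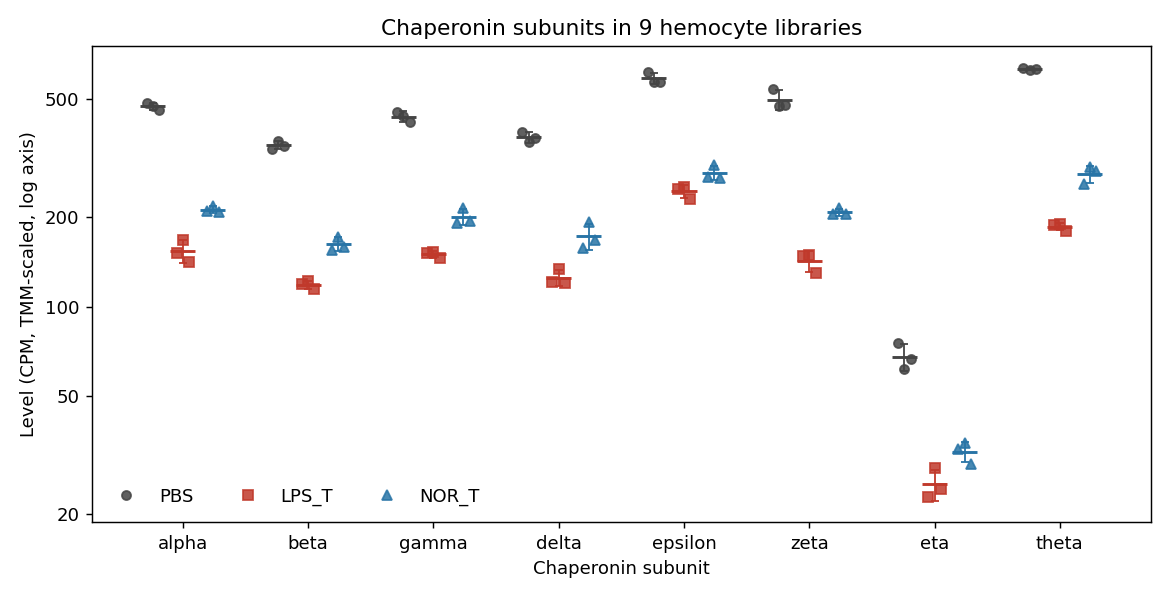
Level of each chaperonin subunit in each library, in TMM-scaled CPM on a log axis. Points are libraries (circles PBS, squares LPS_T, triangles NOR_T), horizontal lines are group means and bars 1 SD (n = 3). Every subunit has its PBS libraries highest and its LPS_T libraries lowest. The members were chosen for lying below PBS, and the share of all tested genes in this order was not counted. Eta lies far below the others on this scale, which is not corrected for its short gene model.

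Against PBS, the log2 change of the 8 subunits ran from -1.80 (zeta) to -1.26 (epsilon) in LPS_T, with a median of -1.56, and from -1.25 (zeta) to -1.06 (epsilon and eta) in NOR_T, with a median of -1.12. Both contrasts share the 3 PBS libraries, so their values are set side by side only. The subunits were spread more widely in LPS_T (SD between subunits 0.17) than in NOR_T (0.06). Epsilon was the least reduced member in LPS_T, at 2.40-fold below PBS, against 3.48-fold for zeta and 3.39-fold for theta. In NOR_T these 3 were 2.08-fold, 2.38-fold and 2.26-fold below PBS. Over all tested genes, 15.0% were called lower and 14.6% higher in both exosome groups together against PBS. Those shares are the background for the lists that follow, and nothing is read from them for the subunits themselves.

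The contrast of LPS_T with NOR_T compares no PBS mean and was tested for the members. The PBS libraries still entered its TMM scaling and its shared spread estimate, since all 9 libraries were fitted together. The contrast also involves the 6 exosome libraries on which, against PBS, the members were chosen. All 8 subunits were lower in LPS_T by edgeR's quasi-likelihood test with Benjamini-Hochberg adjustment over the 11678 genes, where 8.89% of genes were called lower and 12.6% higher. The median of the subunits was -0.46 on the log2 scale, beside -0.0047 for all tested genes. In every subunit all 3 LPS_T libraries lay below all 3 NOR_T libraries. The share of all tested genes that stood apart in this way was not counted, so nothing is read from it.

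Theta differed most, by -0.59 ± 0.05 (SE) on the log2 scale (95% interval -0.70 to -0.47, adjusted p = 9.5e-07). Zeta followed at -0.55 ± 0.07, 1.46-fold lower (adjusted p = 1.69e-05). Alpha, delta, beta and gamma formed a middle set at -0.46, -0.46, -0.45 and -0.42, with adjusted p from 2.48e-05 to 0.000201. Their estimates lay within their standard errors of 0.06 to 0.07 of one another.

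Eta was lower by -0.36 ± 0.11 (95% interval -0.60 to -0.13, adjusted p = 0.0246), and epsilon by -0.20 ± 0.06, 1.15-fold (95% interval -0.33 to -0.08, adjusted p = 0.0178). The interval of epsilon did not reach those of theta and zeta. These were also the calls that rested on single libraries. Epsilon had an adjusted p of 0.0683 without LPS_T 3 and 0.0908 without NOR_T 2, and eta one of 0.118 without LPS_T 1, 0.0742 without LPS_T 3, 0.0669 without NOR_T 1 and 0.0953 without NOR_T 2.

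With limma on log2(FPKM + 1), which leaves out TMM scaling, 1 of the 8 calls held, that of zeta, and with log2(FPKM + 0.1) none did (adjusted p from 0.0679 to 0.653), although all 8 differences stayed below 0. With PBS 1 kept out of those fits, an alternative chosen after seeing the data, 6 of 8 were called under either pseudocount, all but epsilon and eta. Summed FPKM of the subunits was 1225 in PBS 1 against 1668 and 1646 in PBS 2 and 3, so FPKM carries a library difference that TMM-scaled CPM (3525, 3353 and 3330) does not.

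**Figure D2:**
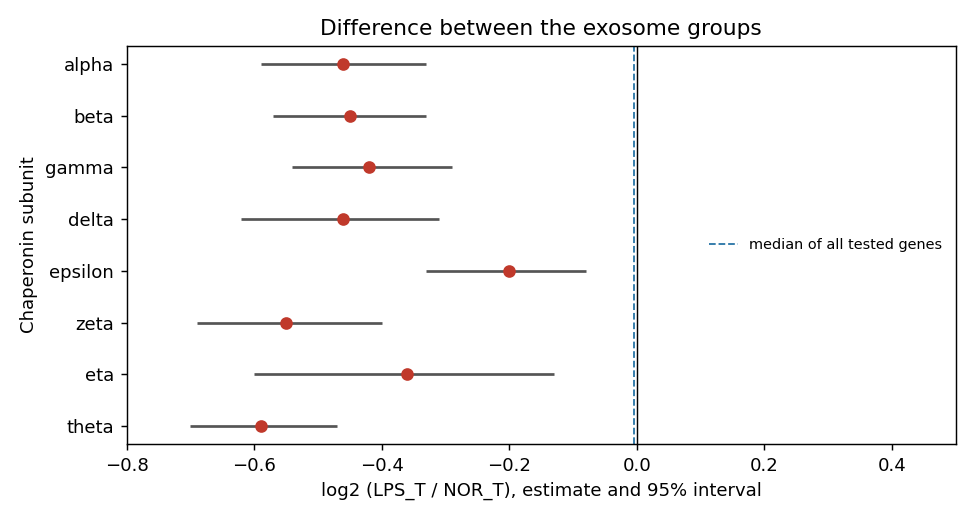
Log2 difference of LPS_T from NOR_T for each chaperonin subunit, as the edgeR estimate (points) with its 95% interval (bars), n = 3 libraries per group. The dashed line is the median of all 11678 tested genes, -0.0047. All intervals lie below 0, theta is lowest at -0.59 and epsilon is nearest to 0 at -0.20.

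Marker genes of ciliated epithelium and gonad also differed between these groups, while those of muscle differed little. Of 31 tested muscle markers 3 were higher and 1 lower in LPS_T than in NOR_T, beside 12.6% and 8.89% of all genes. They summed to 7959 to 8682 CPM in LPS_T and 8297 to 8719 CPM in NOR_T, which overlapped, and to 7509 to 7978 CPM in PBS. Of the ciliated epithelium markers, 74 of 94 matched genes were tested. In LPS_T against NOR_T 48 of them were higher and none lower. Their summed level was 1343 to 1393 CPM in LPS_T, 778 to 969.5 CPM in PBS and 546 to 568 CPM in NOR_T, and 3, 7 and 7 of the matched genes had no count in any library of LPS_T, PBS and NOR_T. The gonad markers summed to 2377 to 2617 CPM in LPS_T, 1818 to 1954 CPM in PBS and 1478 to 1553 CPM in NOR_T, with 16 of 27 higher and 3 lower in LPS_T than in NOR_T. Most of the difference in the gonad sum came from 1 gene, the testis-specific tubulin alpha chain. Without it the other 26 summed to 1225 to 1369 CPM in LPS_T, 1114 to 1279 CPM in PBS and 1199 to 1247 CPM in NOR_T, which overlapped. The order of the ciliated epithelium levels, LPS_T above PBS above NOR_T, is not the order of the chaperonin subunits, and the part of these markers in the result was not tested.

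The make-up of the complex was compared through the share of each subunit in the summed FPKM of the 8 in the same library. Shares put the subunits on a per-length scale and cancel any scaling of a library. Equal amounts of all 8 transcripts would give equal shares, and the shares were not equal. Beta was the lowest in all 9 libraries, at 6.22% to 7.09%, and epsilon the highest in 8 of 9, with gamma first in PBS 2. The highest subunit exceeded the lowest by 2.22 to 2.84 times, and by 1.34 to 2.09 times when the next lowest was taken instead of beta. Shares per length depend on the authors' gene models, with eta the shortest and beta the longest, at 8.67 times the implied length of eta. In CPM, which is not divided by length, beta stood near delta, at 349 against 370.3 CPM in PBS. Whether the low share of beta stems from its model was not tested.

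In PBS the order by mean share was gamma (15.3% ± 0.40, SD, n = 3), epsilon (15.28% ± 0.08), theta (13.99% ± 0.44), alpha (13.57% ± 0.33), delta (12.84% ± 0.19), eta (11.3% ± 0.78), zeta (libraries at 10.7% to 11.49%) and beta (6.71% ± 0.45). The library ranges of gamma and epsilon overlapped, as did those of theta and alpha and those of eta and zeta. Within each PBS library theta lay above alpha, while gamma and epsilon, and eta and zeta, changed order in PBS 2. Delta lay below theta and alpha in each PBS library, and beta far below all others.

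Epsilon took a larger share in LPS_T. Its share was 15.38%, 15.22% and 15.25% in PBS 1, 2 and 3. It was 19.19%, 18.28% and 18.49% in the LPS_T libraries and 16.19%, 16.05% and 15.86% in the NOR_T libraries. The 3 groups did not overlap, and LPS_T exceeded NOR_T by 2.62 points (exact two-sided permutation test, p = 0.1, the smallest that 3 against 3 libraries allow, 0.2 after adjustment over the 8 subunits).

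Theta and zeta took smaller shares in LPS_T. Theta was at 12.32%, 11.64% and 12.29% in LPS_T and at 12.97%, 13.41% and 14.21% in NOR_T, a difference of -1.45 points, and zeta at 9.73%, 9.18% and 8.85% against 10.34%, 9.79% and 10.18%, a difference of -0.85 points. Neither subunit overlapped between LPS_T and NOR_T, and each had the same exact permutation p of 0.1 (adjusted 0.2). In PBS theta had 13.5% to 14.33%, which overlapped NOR_T but not LPS_T, and zeta 10.7% to 11.49%, above both exosome groups.

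The other subunits kept their shares more closely. Beta differed between LPS_T and NOR_T by -0.13 points without overlap (exact permutation p = 0.1), gamma by 0.06 points (p = 0.9 in the same exact test, with the sign turning in 3 of 6 fits that leave out 1 library), and alpha by -0.40 points (exact permutation p = 0.2). Delta differed by -0.33 and eta by 0.47 points, each with an exact permutation p of 0.5 and with overlapping libraries. With 3 libraries a group no subunit could pass the 0.05 threshold.

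Summed over subunits, the points of share that would have to be reassigned to turn one mean profile into another were 4.52 between PBS and LPS_T, 3.16 between LPS_T and NOR_T and 1.61 between PBS and NOR_T. Between single libraries of the same group they were 1.51 to 2.69 in PBS, 1.89 to 3.12 in LPS_T and 1.81 to 2.12 in NOR_T. The value between the mean profiles of NOR_T and PBS thus lay within the range found between single libraries of a group, which average out less error, while the summed level of NOR_T was far below PBS. The value between LPS_T and NOR_T was 2.67 without NOR_T 3 and at most 3.54 without NOR_T 1, and it was 3.25 without eta.

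**Figure D3:**
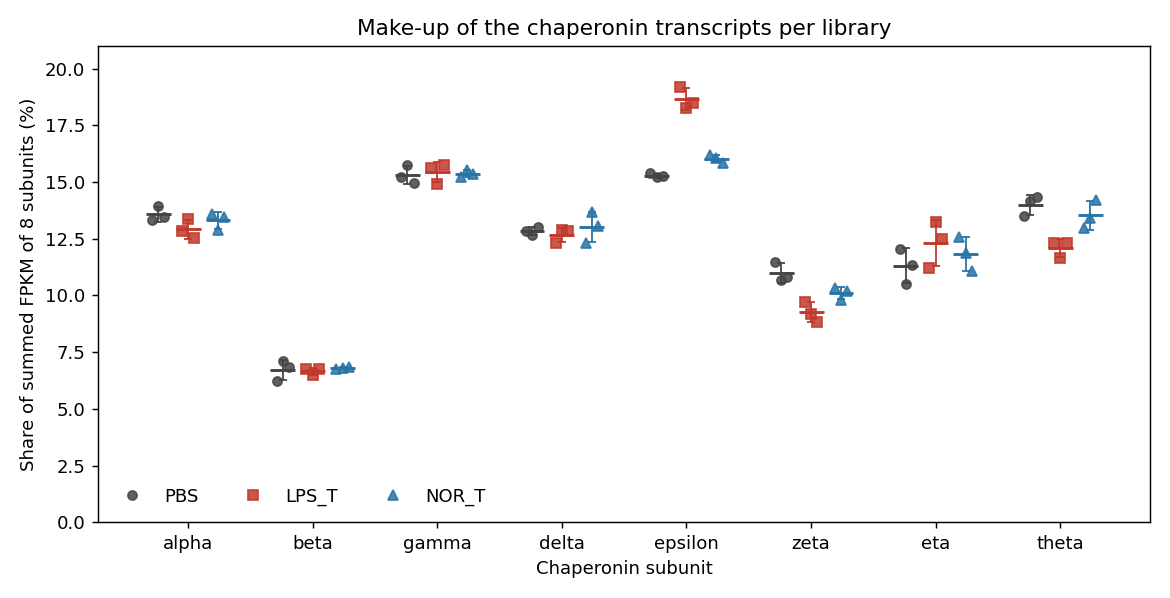
Share of each subunit in the summed FPKM of the 8 chaperonin subunits of the same library, in percent. Points are libraries (circles PBS, squares LPS_T, triangles NOR_T), horizontal lines are group means and bars 1 SD (n = 3). Epsilon is the subunit whose LPS_T libraries (18.28% to 19.19%) stand above all others, theta and zeta have lower LPS_T shares, and beta is lowest throughout.

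Within a group, where treatment is the same, most or all subunits deviated to the same side in several libraries. In LPS_T 2 and in NOR_T 2 all 8 subunits lay above their group mean, by 0.08 and 0.088 on the log2 CPM scale on average. In LPS_T 3 none did (mean deviation -0.072). In PBS 1, 7 of 8 lay above the PBS mean (0.061), with beta below, and 1 of 8 lay above it in each of PBS 3, NOR_T 1 and NOR_T 3. PBS 2 and LPS_T 1 were mixed, with 3 and 5 of 8 above. Of all tested genes, 47.9% to 53.2% lay above their group mean in any library, and the median deviation was -0.01 to 0.012. Deviations within a group sum to 0 over its libraries, so the 3 values of a group are not independent. How often other complexes or gene sets of this size shift to the same side was not counted.

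The ratios between subunits varied by amounts of a similar size. The SD of the log2 ratio around its group means had a median of 0.07 over the 28 pairs of subunits, from 0.035 for gamma and epsilon to 0.152 for beta and eta. Without eta the largest of the 21 pairs was 0.101. Gamma and epsilon, which kept step most closely within groups, were also a pair whose ratio differed between groups, since the share of gamma was alike in all 3 groups and that of epsilon was not.

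**Figure D4:**
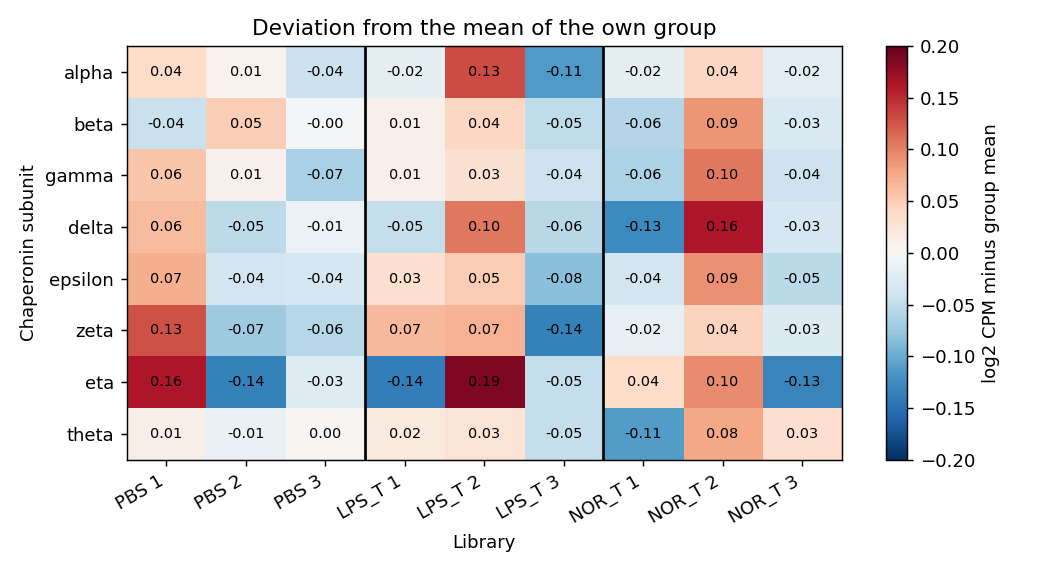
Deviation of each subunit from its own group mean in each library, in log2 CPM (red above, blue below, value printed in each cell). Vertical lines part the groups of 3 libraries. The columns of LPS_T 2 and NOR_T 2 are red throughout and that of LPS_T 3 is blue throughout, with eta showing the largest single deviations.

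The profile over all 9 libraries was compared gene by gene as the root mean square difference between the gene-centred log2 CPM of a gene and the mean profile of the subunits, leaving a subunit out of its own reference. By that measure gamma (0.035), alpha (0.046), delta (0.047) and beta (0.056) ranked 1 to 4 of the 11678 tested genes. Theta ranked 10 (0.107), eta 15 (0.118), zeta 16 (0.121) and epsilon 25 (0.150). Since the members were chosen on their level against PBS, these ranks are a description.

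The nearest genes with an informative description outside the complex included several folding factors, and 1 uncharacterized gene at rank 6 was passed over by the naming rule. Nearest of all was a sialin-like gene (evm.TU.scaffold41509.73, root mean square difference 0.057, rank 5), sialin being a lysosomal sialic acid transporter in mammals. It stood at 187.5 ± 2.67 CPM in PBS, 62.7 ± 1.48 CPM in LPS_T and 84.4 ± 2.79 CPM in NOR_T (SD, n = 3). The hsc70-interacting protein-like gene (evm.TU.scaffold58059.2, 0.085), a co-chaperone of HSP70, stood at 201, 74.2 and 103 CPM in the same order. Tubulin-folding cofactor B-like (evm.TU.scaffold64999.3, 0.106), which in mammals takes part in folding alpha-tubulin released from the chaperonin, stood at 129.5, 42.2 and 54.6 CPM.

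An FKBP4-like prolyl isomerase, a co-chaperone of HSP90 (0.106), and a nudC-like gene (0.109), whose relatives work with HSP90 and dynein, came next. A headcase protein-like gene (0.110) and 2 genes described as serum factor response D-like (both 0.117) completed the 8 nearest described genes. Leaving out a library kept 5 to 8 of these 8 genes.

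Genes adjacent to the subunits were called in both directions or not at all. Of 13 neighbours, none overlapping a subunit and lying 360 to 107811 bases away, 8 were tested. In both exosome groups against PBS, 2 were lower and 1 was higher by the edgeR test, beside the 15.0% and 14.6% of all genes. The NADPH--cytochrome P450 reductase-like gene beside zeta, which hands electrons to P450 enzymes, fell from 139.6 ± 4.14 CPM in PBS to 94.0 ± 2.44 CPM in LPS_T and 92.5 ± 2.63 CPM in NOR_T (log2 change -0.58 ± 0.05 SE, edgeR adjusted p = 4.36e-07). Dynein light chain 1, on the other side of zeta, had under 1 CPM in each group (-1.85 ± 0.67, edgeR adjusted p = 0.0493). A STAT5B-like gene beside epsilon, a transcription factor of cytokine signalling, was higher, at 157 ± 9.02, 276 ± 8.23 and 192 ± 8.60 CPM in PBS, LPS_T and NOR_T (0.55 ± 0.05, edgeR adjusted p = 1.03e-06). Eta had no neighbour on its scaffold.

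Partners, clients and other complexes were counted for comparison from lists matched to gene descriptions, in both exosome groups against PBS. Among helpers that bring clients to the chaperonin, 3 of 8 tested prefoldin genes were lower and none higher (median log2 change -0.26, all tested genes 0.0043). Prefoldin is the complex that hands nascent actin and tubulin to the chaperonin. Subunit 6-like changed by -0.51, subunit 5-like by -0.40 and subunit 1-like by -0.38 (edgeR adjusted p = 0.000114, 0.000331 and 0.0391). Every chaperonin subunit changed more, but the subunits were chosen on this contrast, so nothing is read from that. With limma on log2(FPKM + 1) none of these 3 calls held.

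Phosducin-like protein 3, whose family in other animals binds the chaperonin, went the other way. It was at 83.3 ± 3.09 CPM in PBS, 136 ± 5.93 CPM in LPS_T and 96.1 ± 8.84 CPM in NOR_T (SD, n = 3), a log2 change of 0.46 ± 0.07 in both exosome groups against PBS (edgeR adjusted p = 7.37e-05). It was also 0.50 ± 0.07 higher in LPS_T than in NOR_T (edgeR adjusted p = 0.000103). The other phosducin-like gene was not called (0.29, edgeR adjusted p = 0.142).

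Genes related to the chaperonin by sequence or by name were not called in both exosome groups against PBS. The McKusick-Kaufman/Bardet-Biedl syndromes chaperonin-like gene, a Bardet-Biedl syndrome 10 homolog and a T-complex protein 11-like gene had log2 changes of -0.26, -0.36 and -0.20 at 8.39 to 16.4 CPM, with edgeR adjusted p of 0.132 to 0.35. T-complex protein 11 shares only its name with the chaperonin.

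The mitochondrial chaperonin, the bacterial-type counterpart built of HSP60 and HSP10, was lower in 4 of 5 tested genes. HSP10 (evm.TU.scaffold42539.2) stood at 107 ± 5.69 CPM in PBS, 43.7 ± 4.23 CPM in LPS_T and 60.7 ± 5.41 CPM in NOR_T, a log2 change of -1.05 ± 0.07 (edgeR adjusted p = 3.69e-08). HSP60 genes evm.TU.scaffold46503.1 and evm.TU.scaffold42539.1, the latter next to HSP10, changed by -1.05 ± 0.10 and -1.06 ± 0.11 (edgeR adjusted p = 1.11e-06 and 4e-06). HSP10 was also lower in LPS_T than in NOR_T, by -0.47 ± 0.09 (edgeR adjusted p = 0.00101), close to the -0.46 of the median cytosolic subunit, while these HSP60 genes, at -0.31 and -0.39, were not called (edgeR adjusted p = 0.083 and 0.0573). A sparse HSP60 model (evm.TU.scaffold64389.1) was called lower in LPS_T (edgeR adjusted p = 0.0409), with no count in any LPS_T library and 45, 0 and 56 counts in NOR_T 1, 2 and 3, and evm.TU.scaffold722287.1 was not (-0.38, edgeR adjusted p = 0.223). Both were picked after their values were seen. The several HSP60 models may be pieces or close copies of the same gene, and how reads were split between them is uncertain.

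Of the tubulin chains 11 of 28 tested genes were lower, or 7 with limma on FPKM, and 2 higher (median -0.26). The higher count was 0 without PBS 2 or without NOR_T 3, and 1 without PBS 3, LPS_T 1, LPS_T 2 or NOR_T 2. The most abundant tubulin per length, alpha-1 chain-like (evm.TU.scaffold55215.10), was at 2915 ± 388 CPM in PBS, 2890.2 ± 163 CPM in LPS_T and 3205 ± 199 CPM in NOR_T (log2 change 0.06, edgeR adjusted p = 0.567; -0.01 without PBS 2). Tubulin beta-4B chain (evm.TU.scaffold42195.17) changed by -0.25 (edgeR adjusted p = 0.00201) and an alpha-1A chain-like gene (evm.TU.scaffold8357.25) by -1.05 (edgeR adjusted p = 1.18e-07).

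The testis-specific alpha chain, itself a member of the gonad list, had 698.9 ± 80.0 CPM in PBS, 1163 ± 80.8 CPM in LPS_T and 294.8 ± 14.5 CPM in NOR_T (SD, n = 3). It was highest in LPS_T, where the chaperonin was lowest, but it was lowest in NOR_T and not in PBS, where the chaperonin was highest. In LPS_T it was 1.98 ± 0.08 higher on the log2 scale than in NOR_T (edgeR adjusted p = 8.91e-11). In that contrast 6 of 28 tubulin genes were higher and 2 lower. The lower count was 1 without LPS_T 1.

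Tubulin cofactors split. Tubulin-folding cofactor B-like fell by 1.43 on the log2 scale (SE 0.06, edgeR adjusted p = 1.33e-10). That lay within the range of the chaperonin subunits, which were chosen on this contrast. The chaperone D-like gene was higher by 0.36 ± 0.08 (edgeR adjusted p = 0.0019). The other 4 of 6 were not called, the A-like gene for example at 0.17 (edgeR adjusted p = 0.239).

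Actin genes, the other main clients, showed no common decrease: 5 of 12 tested were higher and 1 lower (median 0.33), or none lower with limma on FPKM and 2 higher under the filter of an FPKM of at least 5. The dominant actin gene (evm.TU.scaffold22095.12) was at 85335 ± 8280.0 CPM in PBS, 78927 ± 4980.0 CPM in LPS_T and 86616 ± 4600.0 CPM in NOR_T. Its log2 change was -0.05 (edgeR adjusted p = 0.606), and it was 0.06 with library sizes only, 0.12 with limma and 0.02 without PBS 1. Beta-actin changed by -0.02 (edgeR adjusted p = 0.857) with a sign that turned under the same settings, and Actin-2 (evm.TU.scaffold14907.6) rose by 1.31 ± 0.09 (edgeR adjusted p = 1.42e-08) from 59.6 ± 9.70 CPM in PBS to 146.8 ± 8.07 and 147.6 ± 9.26 CPM.

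Among genes matched by description to beta-propeller and other reported clients (G protein beta subunits, CDC20-type proteins, phosphatase 2A regulatory subunits, von Hippel-Lindau), 2 of 12 were higher and 1 lower (median -0.0065). The match also took in phosphatase 2A subunits B' and B'', and whether these are clients was not tested. A von Hippel-Lindau tumor suppressor-like gene (evm.TU.scaffold38447.64) was at 86.6 ± 7.65 CPM in PBS, 35.1 ± 2.27 CPM in LPS_T and 38.8 ± 3.27 CPM in NOR_T. Its log2 change was -1.23 ± 0.08 (edgeR adjusted p = 8.93e-09), and its human counterpart is folded by the chaperonin. Another gene with the same description (evm.TU.scaffold42729.3) was not called (-0.268). The G protein subunit beta-5-like gene was higher by 0.67 (edgeR adjusted p = 0.00633), and the phosphatase 2A regulatory subunit B' gene by 0.46 (edgeR adjusted p = 0.0497). The 55 kDa regulatory subunit B alpha gene of that phosphatase was not called (-0.012). The higher count was 1 without any one of PBS 2, PBS 3, LPS_T 1, LPS_T 2, NOR_T 1 and NOR_T 2.

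In the cytosolic HSP70 and HSP90 system 11 of 41 tested genes were higher, or 7 with limma on log2(FPKM + 0.1), and 9 lower (median 0.12). Most of the higher ones were heat shock 70 kDa protein 12A-like or 12B-like, for example evm.TU.scaffold42795.3 (1.46). The lower ones included heat shock protein 90 (-1.01), activator of 90 kDa heat shock protein ATPase-like 2 (-1.20) and Cdc37-like (-0.59). The genes of the list with the smallest p were all lower. Their changes were close in size to those of the chaperonin, which was chosen on this contrast. Stress-induced-phosphoprotein 1-like, an adaptor that joins HSP70 to HSP90, fell from 455 ± 10.3 CPM in PBS to 151 ± 4.69 and 174 ± 2.35 CPM in LPS_T and NOR_T (-1.49 ± 0.04, edgeR adjusted p = 1.23e-12). A gene described as hsp70-Hsp90 organizing protein-like (evm.TU.scaffold15073.8) was not called (0.13). Heat shock 70 kDa protein 4-like fell by 1.24 (SE 0.04) and the hsc70-interacting protein-like gene by 1.20 (SE 0.05), with edgeR adjusted p of 2.25e-12 and 7.8e-11. In LPS_T against NOR_T the phosphoprotein 1-like, protein 4-like and hsc70-interacting genes had log2 changes of -0.20, -0.10 and -0.48 (edgeR adjusted p = 0.00908, 0.133 and 2.33e-05).

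Of the DnaJ co-chaperones, which feed clients to HSP70, 8 of 29 were lower and 2 higher (median -0.14). DnaJ homolog subfamily A member 1-like changed by -0.66 and subfamily C member 7-like by -0.85 (edgeR adjusted p = 1.33e-07 and 7.65e-05). The lower count was 4 with library sizes only and 1 with limma on log2(FPKM + 1). In the R2TP group, an HSP90 partner that assembles large complexes, ruvB-like 2 fell by 1.02 (SE 0.07) and ruvB-like 1 by 0.84 (SE 0.09), with edgeR adjusted p of 1.32e-08 and 2.92e-06, and the other 3 of 5 were not called.

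In both exosome groups against PBS, edgeR called neither of the 2 heat shock factor genes, the factor 5-like (log2 change -0.34) and the factor-like (0.05), nor the heat shock factor-binding protein 1 gene (0.07), with adjusted p of 0.511 to 0.86. Heat shock factor protein 5-like was higher in LPS_T than in NOR_T, at 2.93 ± 0.533 against 0.905 ± 0.488 CPM (1.68 ± 0.41, edgeR adjusted p = 0.00752).

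Other large cytosolic complexes served as a comparison. Of 46 proteasome subunits 6 were higher, or 1 with limma on log2(FPKM + 1), and none lower in both exosome groups against PBS (median 0.07), with 26S non-ATPase subunit 2 at 0.40 ± 0.07 (edgeR adjusted p = 0.000421). In LPS_T against NOR_T 1 of 46 was lower and none higher, and that count was 4 without PBS 1 and 0 without PBS 2, LPS_T 1 or LPS_T 3. Of 13 eIF3 subunits, the scaffold of translation initiation, 3 were lower and none higher against PBS (median -0.11), with subunit M-like at -0.30 ± 0.05 (edgeR adjusted p = 0.00069).

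In LPS_T against NOR_T, 9 of 13 eIF3 subunits were lower (median -0.24, range -0.44 to -0.14, beside -0.59 to -0.20 for the chaperonin). That count was 5 without LPS_T 1 or without LPS_T 3, 2 with library sizes only and 0 with limma on log2(FPKM + 1). Lower levels in LPS_T than in NOR_T across the members of a complex were thus also counted outside the chaperonin, and the difference between the complexes was not tested.

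**Figure D5:**
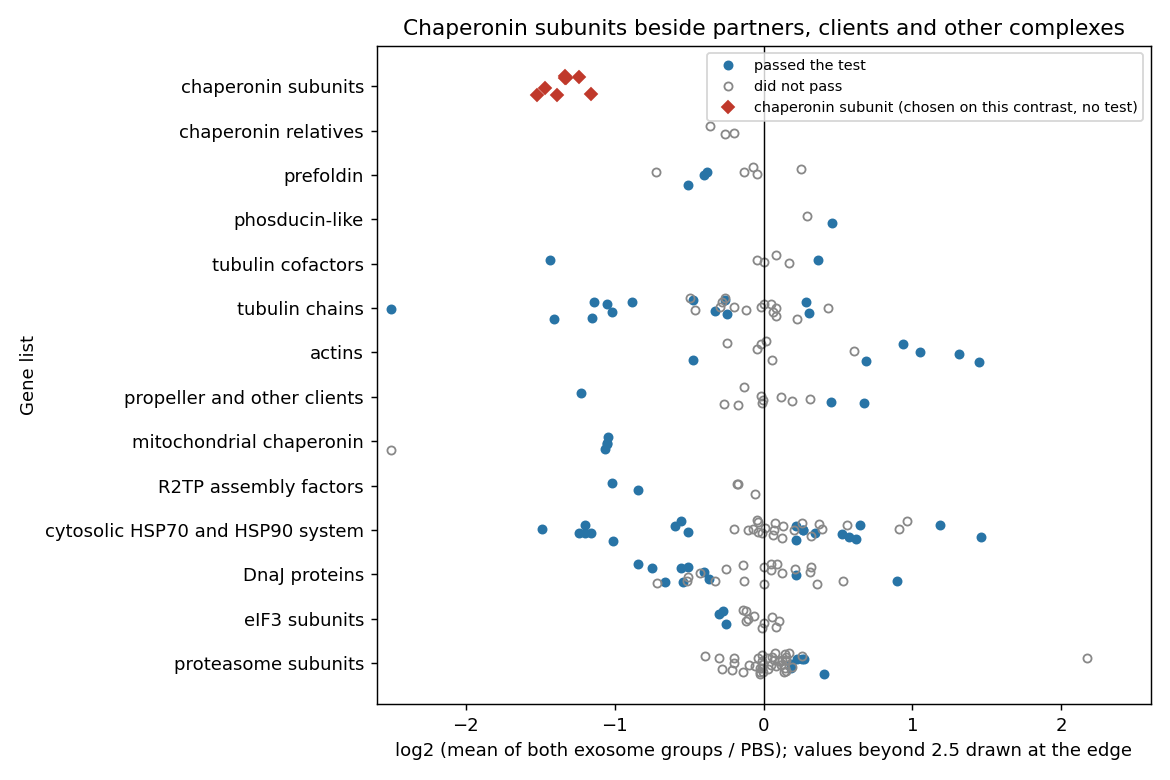
Log2 change of both exosome groups against PBS for each tested gene of the lists, by list (filled points passed the edgeR test, open points did not). Diamonds are the 8 chaperonin subunits, chosen on this contrast and not tested. The subunits lie between -1.53 and -1.16, a range that also holds 1 tubulin chain, 1 tubulin cofactor, 1 propeller client and 5 genes of the HSP70 and HSP90 list, while proteasome and eIF3 subunits lie mostly near 0.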

How the data were processed

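Hemocyte poly(A) RNA was sequenced paired-end with an unstranded kit, per the labels' protocols. HISAT, StringTie and edgeR were used upstream, per the submitters' processing notes, without version numbers. For the genome build and counting options, "not given in the sources used here" applies. For every gene and library the deposited table holds an estimated count and an FPKM, which the authors scaled by length and depth, per the file headers. The deposited counts are treated as estimated (expected counts) since their most common value above 0 is 4 in every library, which whole fragments counted once would not give, and they were rounded to whole numbers.

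The 8 subunits and all gene lists were chosen with earlier results of these data known. Counts of the 11678 genes that reached an FPKM of 1 in 3 or more libraries were fitted in edgeR 4.0.16 (TMM scaling, quasi-likelihood test, 1 mean for each of 3 groups, all 9 libraries), with a Benjamini-Hochberg adjusted p under 0.05 as the threshold. The design set counts as the unit, with FPKM only for a table without counts. Standard errors are the log2 change divided by the square root of F, an approximation. Log2 CPM used a prior count of 2. Shares of summed FPKM were compared by an exact permutation test in scipy 1.17.1. The fits were tested on simulated data. Alternatives were limma 3.58.1 on log2(FPKM + 1) and log2(FPKM + 0.1), DESeq2 1.42.0, other scalings and filters, a replicate block and each library left out. R 4.3.3 and matplotlib 3.10.9 were used.

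Genes were named by a rule: the 8 subunits, the 8 nearest genes by profile, and of each list the 3 with the smallest adjusted p in both exosome groups against PBS, with the 4 highest in FPKM for tubulins and actins. Neighbouring genes were named by position. A few further genes of the client, mitochondrial chaperonin, HSP70 and HSP90 lists were named after their values were seen. The tubulin list also takes in gamma-tubulin complex components and an acetyltransferase, and 12 of the 41 tested genes of the HSP70 list are heat shock 70 kDa protein 12A-like and 7 are 12B-like. Reads of close copies (actins, tubulins, heat shock proteins) are uncertain in their split. Estimated fragments are the deposited counts divided by 4, their most common value above 0, which is an assumption. The edgeR fits used the undivided counts. Counting errors cover counting only. No sequence of the subunits was used here.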

Additional observations from a re-analysis of the deposited data

How the results depend on the processing

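All 8 subunits kept the sign of LPS_T against NOR_T under all 19 alternatives, from -0.64 to -0.16 on the log2 scale. The number called lower was 8 with DESeq2, with its size factors in edgeR and under the other filters, 6 with library sizes only and 6 to 8 with a library left out. Depth limits eta most, and the 3 libraries a group limit every share.

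Limma on FPKM made fewer calls. With log2(FPKM + 1) it called 1384 genes in LPS_T against NOR_T (edgeR 2509), 1982 in both exosome groups against PBS (3449), 2350 in LPS_T against PBS (3855), 1263 in NOR_T against PBS (2903) and 1 subunit. With log2(FPKM + 0.1) these were 1164, 1444, 1757, 969 and 0. The median log2 change of all genes in LPS_T against PBS was 0.21 with log2(FPKM + 0.1) and 0.13 with library sizes only, against 0.027 in edgeR. With PBS 1 kept out of the fit, chosen after seeing the data, both exosome groups against PBS gave 2561 and 2278 genes for the pseudocounts of 1 and 0.1. With a library left out the counts were 1963 to 3099, 2889 to 3289, 3110 to 3861 and 2256 to 2814 in the same order.

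Samples of the same number were not paired in the labels, and their deviations correlated by -0.0248 to 0.0797 in 9 pairs. With a replicate block 8 subunits were called and the share dissimilarity was 3.16.

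Values that changed sign were near 0. Actin scaffold22095.12 gave 0.063 with library sizes only, 0.124 with limma at either pseudocount, 0.019 with PBS 1 kept out of limma and 0.021 without PBS 1. Beta-actin gave 0.083, 0.146, 0.007 and 0.011 in the same order, and 0.02 without LPS_T 3. Actin-3 gave -0.018 without PBS 2 and -0.001 without LPS_T 2 or NOR_T 3. Alpha-1 tubulin gave -0.013 without PBS 2, the heat shock factor -0.089 without NOR_T 1, and the share of gamma -0.034, -0.099 and -0.006 points without LPS_T 1, LPS_T 3 and NOR_T 1. With a library left out they ranged from -0.111 to 0.021 and -0.06 to 0.02 for these actins, -0.018 to 0.035 for actin-3, -0.013 to 0.165 for the tubulin, -0.089 to 0.159 for the factor and -0.099 to 0.321 points for gamma. The cause was not tested.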
